A study of Mus musculus with 6 samples.

Results

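Voltage-gated sodium and calcium channels are built from a pore-forming subunit and smaller auxiliary subunits, and 31 genes of these families were taken by gene symbol from the annotation of the array. They comprise 14 pore-forming subunits, counting the sodium leak channel Nalcn, and 17 auxiliary subunits. Single-gene probe sets measured 30 of the 31 among 19938 genes in all. No single-gene probe set is listed for Cacnb3, a calcium channel beta subunit, and it was not analysed here.

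The pore-forming sodium channel opens when the membrane is depolarised and carries the rising phase of the action potential. Calcium channels open with depolarisation too, and the calcium they admit triggers transmitter release, firing patterns and gene expression, according to the type of channel. Auxiliary subunits bring the pores to the membrane and tune their gating, and several of the gamma family, called TARPs, serve mainly as partners of AMPA-type glutamate receptors.

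RNA came from cells derived from a mouse embryonic stem cell line of 129SVEV background, in which GFP was knocked in at CTIP2. The cells were differentiated as SFEBq aggregates and sorted on day 11, day 12 and day 13 into CTIP2:GFP+ and CTIP2:GFP- fractions, labelled as cortical progenitors. Each fraction of each day was hybridised to 1 GeneChip Mouse Gene 1.0 ST array, which gives 6 arrays. Both fractions come from the same knock-in line and culture method, no other treatment distinguishes them, and the labels do not tie the days to separate differentiations.

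Values are RMA signals on the log2 scale, and a difference is GFP+ minus GFP- within a day, averaged over the 3 days. A subunit is said to have risen or fallen where limma, with day as a factor, gave an adjusted p under 0.05 over all genes. The p-values and standard errors rest on the spread of the difference between days. Moderation in limma moves the spread of each gene towards that of all genes (2 residual and 3.8 prior degrees of freedom). Intervals are 95% limits of the mean difference for a single gene, without adjustment.

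As a check of the sort, Bcl11b, the gene of CTIP2, stood at 8.76, 7.91 and 8.54 in GFP+ and 6.44, 6.27 and 6.88 in GFP- cells on day 11, day 12 and day 13. One array was unlike the rest: the GFP- signals of day 13 had the narrowest spread (SD 1.11, against 1.29 to 1.48 on the remaining 5) and correlated with them at 0.863 to 0.927. It was the lowest of the 6 arrays for 19 of the 30 subunits, against 31.2% of all genes, and the highest for 4, against 37.9%. Daily values are therefore given beside the mean differences.

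More subunits were higher in GFP+ than in GFP- cells than the other way round. Of the 30 measured, 5 rose past the test (limma, adjusted p under 0.05), against a background of 0.797% of all genes, and 0 fell, against 0.567%. The risen subunits were Cacng2, Scn3b, Scn3a, Cacna1c and Cacna1g. At an unadjusted p under 0.05, 21 were higher (9.58% of all genes) and 0 were lower. The mean difference was over 2-fold higher for 8 subunits (1.97% of all genes) and over 2-fold lower for 0 (1.02%). On every one of the 3 days 21 subunits were higher (16.9% of all genes) and 1, Scn9a, was lower (21.4%). For 21 subunits each GFP+ array lay above each GFP- array (9.05%), and for 0 it lay below (7.85%). The median difference was 0.66 over the 30 subunits and -0.05 over all genes. The calls did not survive every setting. Without day 13, or after median centring of the arrays, 0 of the 30 subunits and 0 of all 19938 genes passed. At an unadjusted limma p under 0.05, 18 and 21 subunits were still higher. With no block for the day only Cacna1c of these 5 passed, where 125 of all genes were called.

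**Figure D1:**
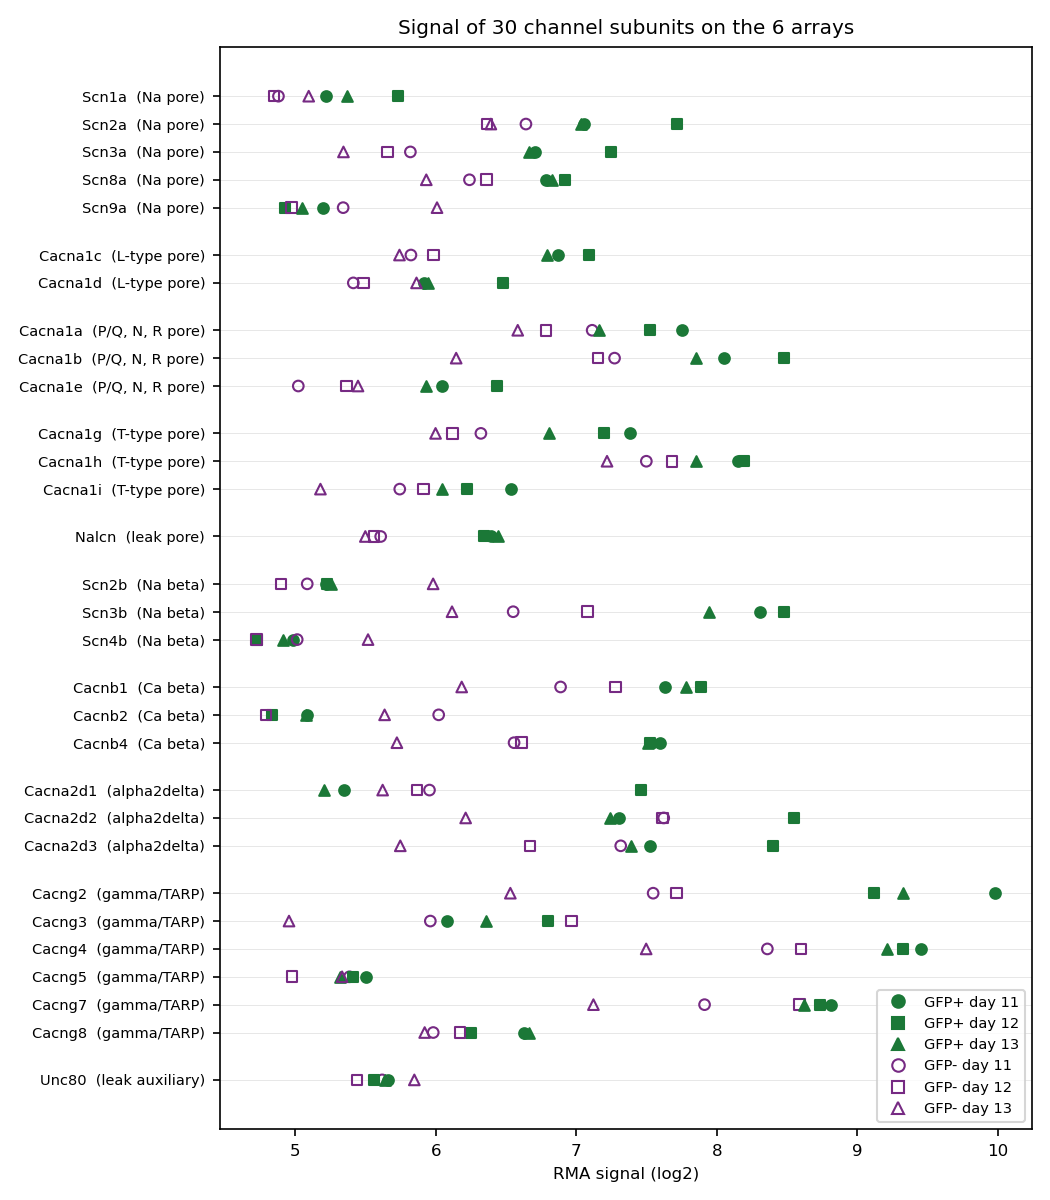
RMA signal (x axis, log2) of the 30 measured subunits (y axis, grouped by role) on the 6 arrays, with filled green points for CTIP2:GFP+, open purple points for CTIP2:GFP-, and the shape of the point giving the day. For 21 subunits all filled points lie to the right of all open ones. Signals of different genes come from different probes and cannot be ranked against each other.

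Cell type markers were read on the same arrays. Of 13 neuronal markers 2 rose, Map2 (0.92) and Syt1 (2.34), 0 fell, and 10 were higher on every day (16.9% of all genes). Nefm had a mean difference of -0.25, and Nefl and Elavl4 were at -0.74 and -0.13 on day 11. The summed linear signal of the 13 was 10020 to 12183 on GFP+ and 3025 to 6383 on GFP- arrays, lowest on the day 13 GFP- array. Of 8 GABAergic markers 6 rose (0.797% of all genes), with sums of 2764 to 7078 and 711.3 to 1006. Of 11 radial glial and progenitor markers 5 fell (0.567% of all genes). Their sums were 4706 to 9481 on GFP+ and 10655 to 14239 on GFP- arrays. Of the 22 measured markers of oligodendrocyte lineage, muscle, mesenchyme and endothelium, microglia and pluripotent cells 0 passed the test in either direction, and no group of them separated the fractions in its summed signal. Pdgfra, listed for the oligodendrocyte lineage, differed by 1.26 with no overlap between fractions (limma adjusted p = 0.057). Of the 5 measured markers of that lineage 3 had a mean difference below 0. The part of the share of neurons in the differences of the subunits was not tested. In these bulk fractions fewer expressing cells and less RNA per cell cannot be told apart.

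The pore-forming subunits stood on 1 side of zero more evenly than the auxiliary ones. Of 14 pore-forming subunits 3 rose (0.797% of all genes). The 13 other than Scn9a were higher on every day (16.9% of all genes) and had no overlap between fractions (9.05%). Of 16 measured auxiliary subunits 2 rose, 8 were higher on every day, and the other 8 went in different directions on different days. The median difference was 0.73 for pore-forming and 0.52 for auxiliary subunits. Without day 11 these medians were 0.75 and 0.72, without day 12 0.73 and 0.73, and without day 13 0.765 and 0.427. Among the 24 subunits with a mean signal above the median of all values the order turned, at 0.82 and 0.91. That mean covers both fractions, so a high GFP+ signal helps a gene to pass. Over all genes the same filter moved the median difference from -0.05 to 0.10. The turned order is therefore not read as a result about the classes. By day the pore-forming median was 0.72, 0.94 and 0.72 on day 11, day 12 and day 13, while the auxiliary median was 0.17, 0.52 and 1.21. For all genes these medians were -0.01, -0.01 and -0.07. The split between both classes is a description, and their difference was not tested.

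**Figure D2:**
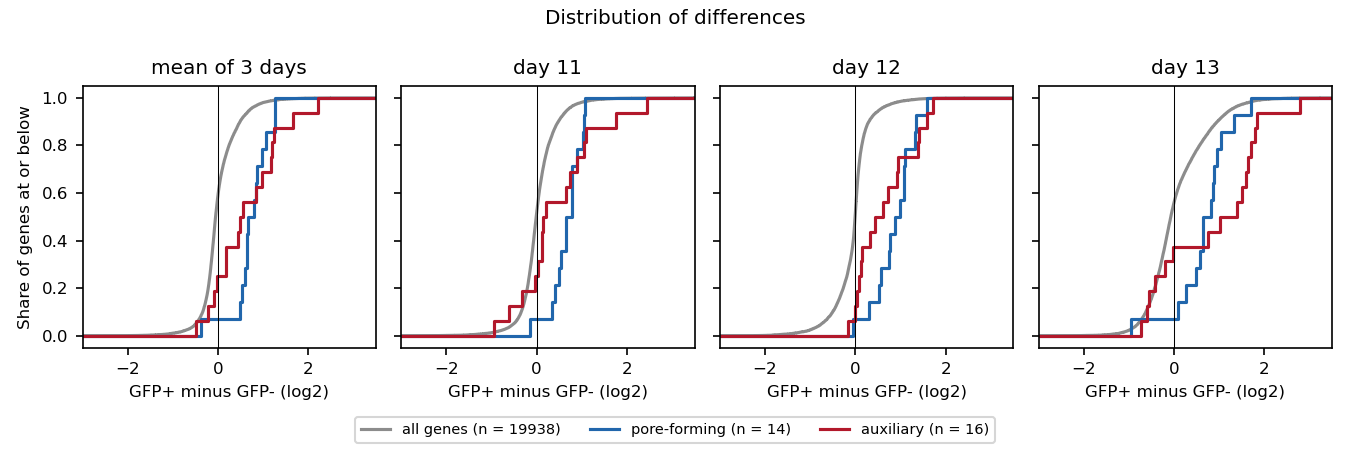
Cumulative share of genes (y axis) at or below a given GFP+ minus GFP- difference (x axis, log2), for the mean of 3 days and for each day, with all 19938 genes in grey, 14 pore-forming subunits in blue and 16 auxiliary subunits in red. By day the medians of the blue curve, 0.72, 0.94 and 0.72, lie to the right of those of the grey one. The red curve moves right on day 13, with a median of 1.21.

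Among the sodium channel pores, Scn3a rose and 3 of the other 4 were higher on each day without passing the test. Scn3a encodes the pore typical of embryonic neurons. Its signal was 6.70, 7.25 and 6.66 in GFP+ and 5.82, 5.66 and 5.34 in GFP- cells on day 11, day 12 and day 13. Every GFP+ array lay above every GFP- array, and the highest was that of day 12. The mean difference was 1.26 (2.40-fold, standard error 0.18, limma adjusted p = 0.045). The daily differences were 0.88, 1.59 and 1.32. Another probe set, which the annotation assigns to both Scn3a and Scn1a, differed by 1.34, and 1 assigned to Scn9a and Scn3a by 1.01. The remaining shared probe set, assigned to Scn2a, Scn9a and Scn3a, differed by 0.30 on the mean, with 0.96 on day 12 and -0.06 on day 13. The signal of these similar pores may therefore mix between the genes.

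Scn2a, the pore of early axon initial segments, had 14 single-gene probe sets, more than any other subunit. The one with the highest signal gave 7.06, 7.71 and 7.03 in GFP+ and 6.64, 6.36 and 6.39 in GFP- cells. The fractions did not overlap, and the day 12 GFP+ array was again the highest. Its difference was 0.80 (interval 0.28 to 1.32) and did not pass the test (limma adjusted p = 0.149), with 0.42, 1.35 and 0.64 by day and a mean of 0.53 without day 12. All 14 probe sets had a mean difference above 0, from 0.18 to 1.49 with a median of 0.85, and 5 exceeded 2-fold. In all 14 the difference was largest on day 12, where 11 exceeded 2-fold, while 4 were below 0 on day 11 and 3 were below 0 on day 13. The size of the Scn2a difference therefore depended on the probe set, and its sign on the mean did not.

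**Figure D3:**
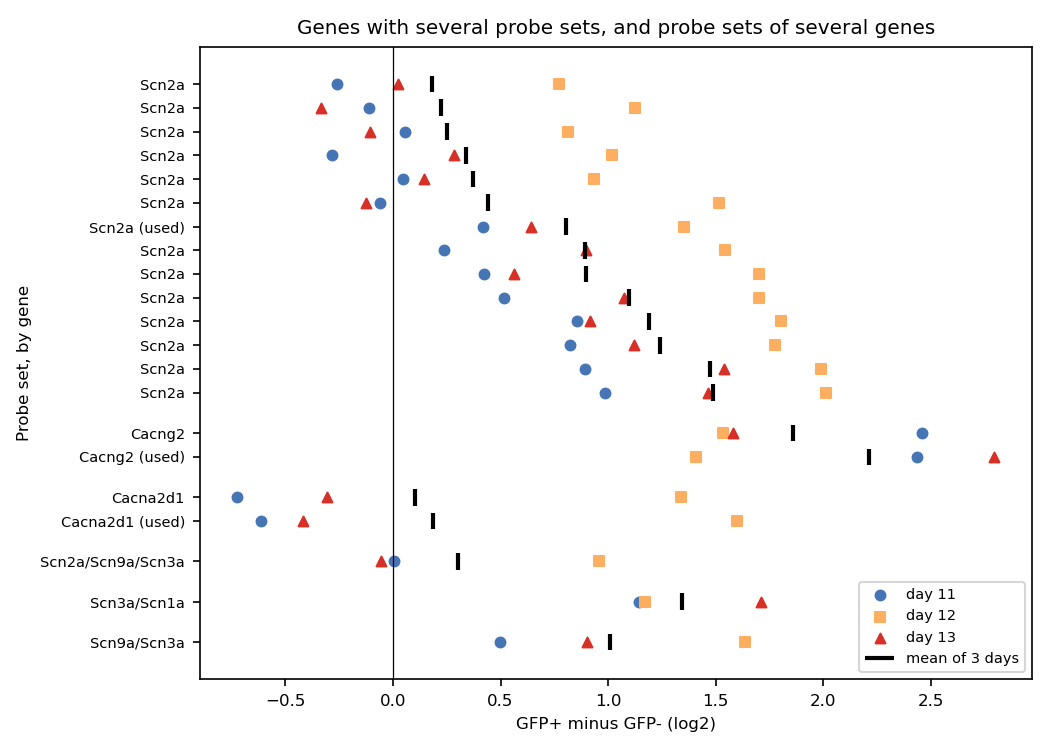
GFP+ minus GFP- difference (x axis, log2) for each probe set (y axis) of Scn2a, Cacng2 and Cacna2d1 and for 3 probe sets that the annotation assigns to several sodium channel genes, with points for the days and black bars for the mean of 3 days. The day 12 point is the rightmost for all 14 probe sets of Scn2a, whose means run from 0.18 to 1.49, and for both probe sets of Cacna2d1, where day 11 and day 13 lie below 0.

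Scn8a, the pore of nodes of Ranvier and mature initial segments, gave 6.78, 6.92 and 6.82 in GFP+ and 6.24, 6.36 and 5.93 in GFP- cells. The 3 GFP+ arrays were close to each other and above all GFP- arrays. The difference of 0.67 (interval 0.30 to 1.03; 0.54, 0.56 and 0.89 by day) missed the threshold (limma adjusted p = 0.104). Scn1a, a pore of inhibitory interneurons in the mature brain, differed by 0.50 (interval 0.07 to 0.93), with no overlap but with both fractions at low signals of 4.85 to 5.73. Its daily differences were 0.34, 0.89 and 0.27, and without day 12 the mean was 0.30. Scn9a, known from sensory neurons, was the exception among the pores: its difference was -0.38 (interval -0.91 to 0.15), with daily values of -0.14, -0.05 and -0.96, so that most of it came from the day 13 GFP- array at 6.01. Without day 13 it was -0.095. A second single-gene probe set of Scn9a, at low signals of 4.31 to 4.61, differed by -0.06, with 0.03, -0.06 and -0.15 by day.

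Of 8 calcium channel pores 2 rose (0.797% of all genes). All 8 were higher on every day (16.9% of all genes) and had no overlap between fractions (9.05%). Cacna1c, an L-type pore that couples activity to gene expression, had the lowest standard error of the 5 rises. It gave 6.87, 7.09 and 6.79 in GFP+ and 5.82, 5.98 and 5.74 in GFP- cells. The lowest GFP+ array, at 6.79, lay above the highest GFP- array, at 5.98, and the daily differences were 1.05, 1.11 and 1.05. Their mean was 1.07 (2.10-fold, standard error 0.13, limma adjusted p = 0.034). It was the 1 risen subunit whose call also held with no block for the day (adjusted p = 0.037).

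RefSeq places 3 starts for Cacna1c in GRCm38.p6, all on the minus strand of chromosome 6. The 250 bases before the first 2 of them, counted along the gene, are shown because they differ widely in CpG content although they belong to the same risen gene. The first, at chr6:119196410-119196659, holds 2 CpG pairs (51.6% G and C), and the second, at chr6:119108496-119108745, holds 48 (82.8%). Both are written 5′ to 3′ along the gene in lower case with each CG pair in capitals. The probe set does not tell which start was used.
Cacna1c first start: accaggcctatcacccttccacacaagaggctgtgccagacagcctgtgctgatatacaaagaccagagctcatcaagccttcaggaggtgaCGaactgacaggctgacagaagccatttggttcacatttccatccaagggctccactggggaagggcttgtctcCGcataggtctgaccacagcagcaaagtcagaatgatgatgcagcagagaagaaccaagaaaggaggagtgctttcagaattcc
Cacna1c second start: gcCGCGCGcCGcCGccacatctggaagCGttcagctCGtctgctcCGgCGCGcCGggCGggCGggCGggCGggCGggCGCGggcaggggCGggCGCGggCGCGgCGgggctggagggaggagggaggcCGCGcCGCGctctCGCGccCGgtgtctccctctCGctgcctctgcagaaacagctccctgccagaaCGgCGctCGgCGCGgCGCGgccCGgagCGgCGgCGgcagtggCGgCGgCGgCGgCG

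Cacna1d, the other L-type pore, had a difference of 0.53 (interval 0.02 to 1.03) that narrowed to 0.08 on day 13, after 0.50 and 0.99 on day 11 and day 12. Without day 12 its mean was 0.29. The pores of presynaptic channels did not pass the test. Cacna1b, the N-type pore of transmitter release, gave 8.05, 8.48 and 7.85 in GFP+ and 7.27, 7.15 and 6.14 in GFP- cells. Its difference of 1.27 was the largest of all pores, but the daily values of 0.78, 1.33 and 1.71 spread more widely than those of Cacna1c, and the adjusted p was 0.058 from limma. Cacna1a, the P/Q-type pore, differed by 0.65 (interval 0.32 to 0.99), and its signal was lower on later days in both fractions, from 7.75 to 7.16 in GFP+ and from 7.11 to 6.58 in GFP- cells. Its daily differences were 0.64, 0.74 and 0.58. Cacna1e, the R-type pore, differed by 0.86 (interval 0.43 to 1.29), with 1.02, 1.07 and 0.48 by day.

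Cacna1g, a T-type pore that opens near the resting potential, rose. It gave 7.38, 7.20 and 6.81 in GFP+ and 6.32, 6.12 and 6.0 in GFP- cells. No array of 1 fraction reached those of the other, and the signal was lower on later days in both. The mean difference was 0.98 (1.98-fold, standard error 0.14, limma adjusted p = 0.045). This call was lost without day 11 (difference 0.94, standard error 0.30, limma adjusted p = 0.098). It was lost too without day 13 (difference 1.07, standard error 0.12, limma adjusted p = 0.061), where 0 of all genes passed. The other T-type pores, Cacna1h and Cacna1i, differed by 0.60 (interval 0.27 to 0.93) and 0.65 (interval 0.24 to 1.07), with no overlap and no call. By day the difference was 0.66, 0.51 and 0.63 for Cacna1h and 0.79, 0.31 and 0.86 for Cacna1i, and that of Cacna1h was 0.35 after a further quantile normalization.

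Nalcn, the voltage-insensitive pore that leaks sodium at rest, was narrow within each fraction, at 6.39, 6.34 and 6.44 in GFP+ and 5.61, 5.56 and 5.50 in GFP- cells. The standard deviations were 0.050 and 0.055 (n = 3 each), and the lowest GFP+ value stood well above the highest GFP- value. Its difference of 0.84 (interval 0.50 to 1.17) fell short of the threshold with day as a factor (limma adjusted p = 0.059) and passed with no block for the day (adjusted p = 0.043). Unc80, the scaffold of the leak channel, behaved otherwise, with 5.66, 5.56 and 5.64 in GFP+ and 5.62, 5.44 and 5.85 in GFP- cells. Its mean difference was -0.02 (interval -0.37 to 0.34), and the fractions overlapped. Unc79, the third protein of that complex, is not among the 31 and differed by 1.76 (1.11, 1.39 and 2.80 by day, limma adjusted p = 0.075), with GFP- signals of 6.79, 6.70 and 5.13.

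**Figure D4:**
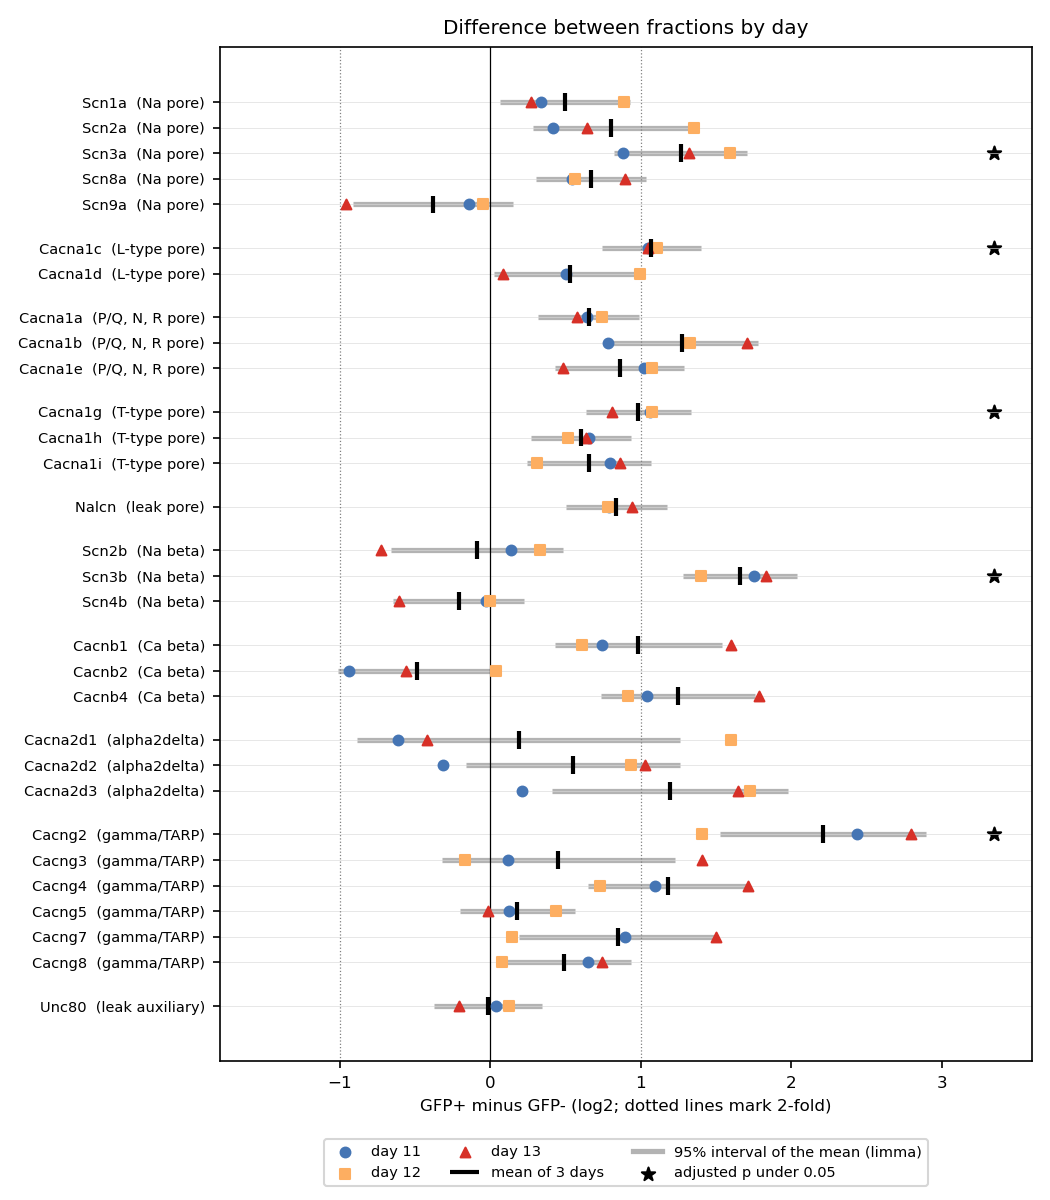
GFP+ minus GFP- difference (x axis, log2) of the 30 subunits (y axis, grouped by role), with coloured points for the days, black bars for the mean of 3 days, grey bars for its 95% interval from limma and stars for an adjusted p under 0.05. The 3 points of Cacna1c nearly coincide at 1.05 to 1.11, whereas those of Cacna2d1 run from -0.61 to 1.60.

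The sodium channel beta subunits, which anchor pores to adhesion molecules and shape their inactivation, were split. Scn3b gave 8.30, 8.48 and 7.94 in GFP+ and 6.55, 7.08 and 6.11 in GFP- cells. The fractions were separated on every day, by 1.75, 1.40 and 1.83. The mean difference of 1.66 (3.16-fold, standard error 0.15) had the lowest adjusted p of all subunits (0.024 from limma). Scn2b gave 5.22, 5.22 and 5.25 in GFP+ and 5.08, 4.90 and 5.98 in GFP- cells, and Scn4b 4.98, 4.72 and 4.91 against 5.01, 4.72 and 5.52. For both genes the GFP- array of day 13 was the highest of 6 and the others were close together. Their mean differences were -0.09 (interval -0.66 to 0.48) and -0.21 (interval -0.65 to 0.22), and without day 13 they were 0.23 and -0.01.

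Scn2b and Scn4b lie next to each other on chromosome 9, with no protein-coding gene between them. Their upstream windows are shown because these neighbours, neither of which passed the test, have upstream sequence of unlike composition. The 250 bases before Scn2b (chr9:45117626-45117875, GRCm38.p6, plus strand) hold 1 CpG pair and 38.4% G and C, and those before Scn4b (chr9:45138374-45138623, plus strand) hold 23 pairs and 66.0%. Capitals mark CG pairs, 5′ to 3′.
Scn2b: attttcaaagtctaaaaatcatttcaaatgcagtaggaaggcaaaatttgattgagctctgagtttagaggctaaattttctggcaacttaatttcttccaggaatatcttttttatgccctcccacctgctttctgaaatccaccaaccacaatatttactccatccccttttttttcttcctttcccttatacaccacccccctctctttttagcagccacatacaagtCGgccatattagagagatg
Scn4b: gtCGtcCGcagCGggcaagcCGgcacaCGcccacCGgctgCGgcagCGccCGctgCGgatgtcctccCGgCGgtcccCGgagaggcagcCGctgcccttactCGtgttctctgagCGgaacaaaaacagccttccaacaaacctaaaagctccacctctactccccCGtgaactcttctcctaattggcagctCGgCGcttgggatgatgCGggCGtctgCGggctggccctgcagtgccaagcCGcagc

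Calcium channel beta subunits, which carry the pore to the membrane, had 0 calls among the 3 measured. Cacnb4 gave 7.60, 7.52 and 7.51 in GFP+ and 6.56, 6.61 and 5.72 in GFP- cells. It was even in GFP+ cells and lowest on the day 13 GFP- array, and its difference of 1.25 (interval 0.73 to 1.76) missed the threshold (limma adjusted p = 0.060). Cacnb1 differed by 0.98 (interval 0.43 to 1.54), with 0.74, 0.61 and 1.60 by day. Cacnb2 went the other way with -0.49 (interval -1.01 to 0.04), at 5.08, 4.83 and 5.08 in GFP+ and 6.02, 4.79 and 5.63 in GFP- cells, with daily differences of -0.94, 0.04 and -0.56.

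The alpha2delta subunits, extracellular proteins that raise the number of channels at the surface, differed from day to day. Cacna2d1 gave 5.34, 7.46 and 5.20 in GFP+ and 5.95, 5.87 and 5.62 in GFP- cells. The day 12 GFP+ array stood alone, with the next highest array at 5.95, while the GFP+ arrays of day 11 and day 13 were below all GFP- arrays. A second probe set of the gene ran the same way, with differences of -0.72, 1.34 and -0.30. Cacna2d2 gave 7.30, 8.55 and 7.24 against 7.62, 7.61 and 6.21, and Cacna2d3 gave 7.53, 8.40 and 7.39 against 7.32, 6.67 and 5.75. In all 3 genes the day 12 GFP+ array was the highest of 6, as it was for 14 of the 30 subunits and for 11.9% of all genes. Mean differences were 0.19 (interval -0.89 to 1.26), 0.55 (interval -0.16 to 1.26) and 1.19 (interval 0.41 to 1.98), and none passed the test.

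The gamma and TARP group held the largest rise. Cacng2, known as stargazin, which traffics AMPA receptors to synapses, gave 9.98, 9.12 and 9.32 in GFP+ and 7.55, 7.71 and 6.53 in GFP- cells. The lowest GFP+ array lay far above the highest GFP- array. The difference was 2.21 (4.63-fold, standard error 0.28, limma adjusted p = 0.034) and ranked 17 of 19938 genes. By day it was 2.43, 1.41 and 2.79. A second probe set gave 2.46, 1.53 and 1.58 with a mean of 1.86, so the probe sets were close on day 11 and day 12 and parted on day 13, where the GFP- signal was the lowest of 3 in the first and the highest of 3 in the second.

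The 250 bases before the RefSeq start of Cacng2 (chr15:78119281-78119530, GRCm38.p6, minus strand) are shown for the subunit with the largest difference. They hold 16 CpG pairs and 62.0% G and C. They run 5′ to 3′ along the gene with CG pairs in capitals.
Cacng2: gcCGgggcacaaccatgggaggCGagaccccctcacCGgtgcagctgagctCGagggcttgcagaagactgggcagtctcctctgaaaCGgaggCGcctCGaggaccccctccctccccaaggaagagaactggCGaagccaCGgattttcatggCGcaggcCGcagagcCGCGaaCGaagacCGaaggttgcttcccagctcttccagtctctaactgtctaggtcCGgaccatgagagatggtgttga

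Of the other 5 members of that group 0 passed the test. Cacng4, a TARP of developing neurons and glia, gave 9.45, 9.33 and 9.21 in GFP+ and 8.36, 8.60 and 7.50 in GFP- cells, with no overlap. Its difference was 1.18 (interval 0.65 to 1.71, limma adjusted p = 0.069), with 1.09, 0.73 and 1.71 by day. Cacng7 and Cacng8, TARPs encoded side by side on chromosome 7, differed by 0.85 (interval 0.19 to 1.5) and 0.49 (interval 0.04 to 0.93), neither past the test. By day the difference was 0.90, 0.14 and 1.5 for Cacng7, whose mean was 0.52 without day 13, and 0.65, 0.08 and 0.74 for Cacng8. Cacng3, a close relative of Cacng2, differed by 0.45 (interval -0.32 to 1.22), with 0.12, -0.17 and 1.40 by day. Cacng5, which lies beside Cacng4 on chromosome 11, differed by 0.18 (interval -0.20 to 0.56), at 5.50, 5.41 and 5.32 in GFP+ and 5.38, 4.97 and 5.33 in GFP- cells.

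On day 11, 7 subunits were over 2-fold higher in GFP+ cells, with 10 on day 12 and 12 on day 13, against 1.85%, 1.48% and 9.18% of all genes. Whether the difference moved with day was asked with a day term in limma, which leaves 1 residual degree of freedom. It called 0 of the 30 subunits, and 7 genes of all (0.0351%). At an unadjusted p under 0.05 it held 3 subunits and 5.11% of all genes. The 3 were Cacna2d2, Cacna2d3 and Cacng3, with fitted slopes of 0.67, 0.72 and 0.64 per day. Over these 3 days the slope depends only on day 11 and day 13, and the differences did not grow steadily. By day they were -0.32, 0.94 and 1.03 for Cacna2d2, 0.21, 1.73 and 1.64 for Cacna2d3, and 0.12, -0.17 and 1.40 for Cacng3. In each of them the day 13 GFP- array was the lowest of 6, and the part of that array in the slope was not tested.

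Related genes outside the 31 were read from lists of family members and of channel partners. Of all genes 0.797% rose and 0.567% fell, and 9.58% were higher and 5.96% lower at an unadjusted limma p under 0.05. Of 17 further family genes 12 were measured, and 0 passed the test in either direction. At an unadjusted p under 0.05, 2 were higher (Unc79 and Fam155a) and 1 was lower (Hvcn1). Their median difference was -0.09. Of 30 partner genes 28 were measured, 1 rose and 0 fell, with a median difference of 0.54. At an unadjusted p under 0.05, 15 partners were higher and 1, Gem, was lower, and 1 of the 28, Snap25, is also among the neuronal markers. The risen partner was Fgf13, an intracellular factor that binds the tail of sodium channel pores. It gave 7.44, 6.91 and 6.93 in GFP+ and 5.89, 6.0 and 5.35 in GFP- cells, which did not overlap. Its difference was 1.34 (standard error 0.18, limma adjusted p = 0.043). This call was lost without day 13 (adjusted p = 0.086), with no block for the day (0.070), after median centring (0.137) or further quantile normalization (0.075), and with the methods' t-test (0.357).

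Upstream sequence was read for all subunits that the RefSeq table holds. It gave 36 windows of 250 bases for 25 of the 31 genes, and Scn3a, Scn3b and Cacna1g, which rose, are not among them. The observed over expected ratio of CpG pairs was above 0.6 in 44.4% of these windows and in 33.6% of the 32851 windows of all genes. Searched on both strands, the GC box GGGCGG was in 33.3% of the windows of the subunits (32.7% of all), the CCAAT box, spelled CCAAT, in 25.0% (33.8%) and the TATA box TATAAA in 5.56% (12.4%). The homeobox core TAATTA was in 0 of 36 windows (4.84% of all). Of the RE1 element, which binds the neuronal gene repressor REST, the left part TCAGCACC was in 0 of 36 (1.32%) and the right part GGACAG in 13.9% (18.7%). These are counts of letters in short windows, and none of the motifs contains another.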

How the data were processed

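RNA of 3 CTIP2:GFP+ and 3 CTIP2:GFP- samples was measured on 6 arrays. The authors calculated the signals with RMA16 in GeneSpring, and the deposited values are log2 signals, which run from 4.15 to 13.1. The sources used here do not give the genome build, or whether the arrays were normalized together. Of 28853 probe sets 21789 had 1 gene symbol in the platform annotation, 1621 had several and 5443 had none. Each gene was represented by its single-symbol probe set with the highest mean, which gave 19938 genes, and no dim probe set was removed. There were 0 columns of per-sample values left unused.

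The fractions were compared in a linear model with fraction and day as factors (limma 3.58.1, R 4.3.3, 2 residual degrees of freedom), eBayes and Benjamini-Hochberg adjustment over all genes at 0.05. Fractions were paired by the day in the labels. The deviations of the 2 arrays of a day from their fraction means correlated at 0.112, 0.558 and 0.368 on day 11, day 12 and day 13. The correlation was weak on day 11. The scripts were tested on simulated data. The number of arrays limits the precision, and the labels do not say that the days came from separate cultures.

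The 31 subunits, the lists of related genes, partners and markers, and the alternatives were chosen with earlier results of these data known. All 31 subunits are named by role, and of the related and partner genes those past the test, with those at an unadjusted p under 0.05 among the related genes, Gem, Snap25 and the marker genes added after their values were seen. As alternatives, day was dropped from the model, each day was left out, and arrays were centred on their medians or quantile-normalized again. Probe sets of a gene were averaged, and dim probe sets were filtered at the 20th percentile (4.65) and the median (5.41). The rest were a trended and robust eBayes and an unpaired Student's t-test. The paper gives Student's t-test for its in vitro and in vivo experiments, and its microarray methods name no test. Upstream windows are from RefSeq, build GRCm38.p6, and protein sequences were not used here.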

Additional observations from a re-analysis of the deposited data

Results flagged for a closer look

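Cacna2d1, an alpha2delta subunit, had differences over 1.5-fold in opposite directions on day 11 and day 12. On day 11 and day 13 GFP+ minus GFP- came to -0.61 and -0.42, and on day 12 it came to 1.60. With 1 array per fraction and day the difference between day 12 and the other days was not tested as such, and the limma term for a steady change with day gave an unadjusted p of 0.721 (limma). The second probe set of the gene, at -0.72, 1.34 and -0.30, showed the same signs.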

How the results depend on the processing

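Against 5 subunits called higher, 159 genes called higher and 113 called lower, leaving out 1 day gave 0 to 11 subunits, 0 to 930 genes higher and 0 to 229 lower. Each low end came from leaving out day 13, where 18 subunits and 3064 genes had an unadjusted limma p under 0.05 and the adjusted p of the 5 calls was 0.052 to 0.093; each high end came from leaving out day 12, and leaving out day 11 gave 8, 381 and 171. With no replicate block for the day, the pairing being dropped, 2 subunits (Cacna1c and Nalcn), 84 genes higher and 41 lower passed. Median centring left 0 subunits and 0 genes in either direction. There the limma adjusted p of the 5 calls was 0.100 to 0.137, with 21 subunits and 2615 genes at an unadjusted p under 0.05. The unpaired Student's t-test also left 0 subunits and 0 genes, with 17 subunits and 1756 genes at an unadjusted p under 0.05. A further quantile normalization gave 3 subunits (Cacna1c, Cacng2 and Scn3b), with 52 genes higher and 99 lower, so that more genes fell than rose. The filter at the 20th percentile gave 9 subunits, 424 genes higher and 244 lower, that at the median 12 of 24 subunits, 693 and 337, and the trended and robust eBayes 12 subunits, 549 and 510. The mean of probe sets kept all 5 calls, but of these it could change only the values of Cacng2, which has 2 probe sets. Scn3a, Scn3b, Cacna1c and Cacna1g have 1 single-gene probe set each, so their values stayed the same. Partner genes called higher, 1 in the fit as reported, were 0 to 8 with 1 day left out, 0 with no replicate block, median centring, further quantile normalization or the t-test, 3 and 6 with the filters and 2 with the trended eBayes, which also called 1 lower. Related family genes, with 0 called, had 0 to 1 called with 1 day left out, 1 with either filter and 2 with the trended eBayes. The day term, with 7 genes called, gave 0 after median centring or further quantile normalization and 1 with the trended eBayes. In a fit chosen after seeing the data, the replicate block and the day 13 GFP- array were left out. It called 6 subunits and 1 related gene, and of all genes 202 higher and 114 lower. There 4 subunits in place of 8 were over 2-fold higher. Signs turned only for subunits far from the threshold. With 1 day left out Scn2b ran from -0.30 to 0.23, Cacna2d1 from -0.52 to 0.59, Cacng3 from -0.024 to 0.76 and Unc80 from -0.086 to 0.079. Unc80 was 0.039 after median centring. In the added fit Scn2b was 0.24, Scn4b 0.0051, Cacng3 -0.051 and Unc80 0.089. No other of the 30 subunits changed sign under these alternatives, and the cause of these changes was not tested.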
